A study of Mus musculus with 6 samples.

Results

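The Prrc2 family of mouse comprises 3 genes, Prrc2a, Prrc2b and Prrc2c, and its mRNA levels were described in RNA-seq counts of hippocampus. The members were chosen by symbol, and each symbol matched 1 of the 37315 Ensembl gene identifiers in the count tables. All 3 members had reads in all 6 libraries and passed every filter on low counts. The libraries came from C57BL/6J mice aged 4 weeks and formed 3 experiments with 1 control and 1 altered library each. In the Nestin-Cre experiment, Prrc2a flox/flox mice (Nestin f/f library) were set against Prrc2a flox/flox mice with Nestin-Cre (Nestin-Cre library). The Nestin-Cre transgene is active in neural progenitors, so neurons, astrocytes and oligodendrocytes descend from cells that had Cre. In the Olig2-Cre experiment, Prrc2a flox/flox mice (Olig2 f/f library) were set against Prrc2a flox/flox mice with Olig2-Cre (Olig2-Cre library). There, Cre was placed at the endogenous Olig2 gene, which leaves 1 working copy of Olig2, and it acts in the oligodendroglial lineage, which is a minor part of whole hippocampus. In the Fto experiment, wild-type mice (WT library) were set against mice carrying an Fto transgene (Fto Tg library), which the methods describe as lentiviral and driven by the ubiquitin C promoter. By their genotype labels, all 4 libraries of the Prrc2a experiments carried the floxed allele on both chromosomes, although the titles of the f/f libraries call them WT, and the WT and Fto Tg libraries carried none. The exons that Cre removes are not given in the sources used here, and counts were made over whole genes. The deletion itself could therefore not be checked in these counts. By immunostaining, the study reports that Nestin-Cre ablated Prrc2a protein in several neural cell types. It also reports less Prrc2a protein in Olig2-positive cells with Olig2-Cre. Those mice were younger than the mice used here. Each group had 1 library, and whether several mice were pooled was not stated, so a test within a pair compares libraries and not genotypes. In whole tissue, fewer cells that express a gene and less RNA per cell cannot be told apart.

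PRRC2 proteins are long, proline-rich proteins of the cytoplasm with extended disordered stretches. The study describes Prrc2a as a reader of N6-methyladenosine (m6A), a methyl mark on adenosine in mRNA that is placed by a writer complex around Mettl3 and Mettl14 and removed by Fto and Alkbh5. All 3 PRRC2 proteins are also known to associate with the scanning ribosome and with stress granules, the cytoplasmic bodies in which stalled initiation complexes gather. Because the paralogs resemble each other, the level of Prrc2b and Prrc2c is of interest where Prrc2a is deleted.

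The members lie on different chromosomes and differ in length and base composition. Coordinates are those of GRCm38. Prrc2a (ENSMUSG00000024393) lies on the minus strand at chr17:35149076-35164897, within the class III region of the major histocompatibility complex. Prrc2b (ENSMUSG00000039262) lies on the plus strand at chr2:32151082-32234537, and Prrc2c (ENSMUSG00000040225) on the minus strand at chr1:162670725-162740556. The union of all annotated exons measured 7631 bases in Prrc2a, 11262 in Prrc2b and 16092 in Prrc2c. The longest coding sequences were closer in length, with 2158, 2230 and 2846 codons. The longest transcripts had 60.6% GC in Prrc2a, 56.2% in Prrc2b and 47.0% in Prrc2c, against a median of 49.6% over 9854 protein-coding genes with a mean of at least 10 CPM (read counts scaled to a library total of 1000000). Prrc2a was thus more GC-rich than 96.7% of those genes and Prrc2c more than 36.4% of them. The coding sequence carried the same order, with 60.6%, 59.6% and 48.6% GC. At the last position of codons Prrc2b was highest, with 64.9% against 51.3% in Prrc2a and 37.4% in Prrc2c.

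GGACT is the commonest form of the sequence around m6A in mouse mRNA, and it was searched on the sense strand of the annotated transcripts. It stood 11 times in the Prrc2a coding sequence, 9 times in Prrc2b and 2 times in Prrc2c, or 1.70, 1.35 and 0.234 per kb. Over the whole longest transcript the density was 1.60, 1.12 and 0.435 per kb. The median of the 9854 genes was 1.02 per kb, and 94.7% of their longest transcripts held at least 1 GGACT. Of all coding GGACT windows of 29 bases compared between members, the most alike were 1 window of Prrc2a and 1 of Prrc2b, with 21 of 29 bases identical. The 5 letters of GGACT are shared by every window. This pair was picked as the best match, and whether it exceeds what unrelated windows give was not tested. Both windows are shown with the 2 coding windows of Prrc2c. Capitals mark GGACT, with 12 bases on each side, in the direction of the transcript.
Prrc2a, exon 14 of 31, chr17:35157894-35157922 (minus strand): ccggccccctctGGACTtctaccctcctg
Prrc2b, exon 14 of 32, chr2:32208792-32208820 (plus strand): acggacgcccgtGGACTtctacccctcag
Prrc2c, exon 19 of 35, chr1:162698172-162698200 (minus strand): aacaagctactgGGACTcagcaaatccaa
Prrc2c, exon 29 of 35, chr1:162679851-162679879 (minus strand): ggccaggcatcaGGACTaggaagttctca
The Prrc2a and Prrc2b windows both lie in exon 14. A match of these letters describes the sequence only, and methylation was not measured in these files.

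The libraries held 18616540 to 35482589 counts. Markers of hippocampal excitatory neurons were present in every library (8 of 8 genes, summed level 5117 to 6034 CPM), while 4 cerebellar markers summed to 6.16 to 19.4 CPM and 4 striatal markers to 17.4 to 55.7 CPM. Fto, the transgene of the Fto experiment, had 354 CPM in the Fto Tg library and 136 to 164 CPM in the other 5 (330.4 and 136 to 203 with TMM scaling). The Nestin-Cre library stood apart before any comparison. Mitochondrially encoded genes took 26.2% of its counts and 7.97% to 8.86% elsewhere, and its count-weighted mean GC content was 45.7% against 48.5% to 49.2% elsewhere. Its TMM factor, the edgeR scale factor that balances most genes between libraries, was 0.672 against 1.07 to 1.09. For this reason the levels and pair ratios of the Prrc2 genes are given both relative to the library total and after TMM scaling.

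Prrc2a, the targeted gene, is given first. Its level was 434 CPM in Nestin f/f, 184 CPM in Nestin-Cre, 389 CPM in Olig2 f/f, 346 CPM in Olig2-Cre, 351 CPM in WT and 334 CPM in Fto Tg. The Nestin-Cre library was lowest and the other 5 lay within 334 to 434 CPM. With TMM scaling, the same order of libraries gave 402, 274, 360, 317, 323 and 312 CPM, and Nestin-Cre remained lowest by a smaller margin. Over the controls the mean was 391 ± 41.2 CPM (SD, n = 3), and the Olig2-Cre and Fto Tg values lay just below the lowest of them, by less than this SD.

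Prrc2b had 559 CPM in Nestin f/f, 359 CPM in Nestin-Cre, 424 CPM in Olig2 f/f, 347 CPM in Olig2-Cre, 401 CPM in WT and 325 CPM in Fto Tg. On this scale all 3 altered libraries were below all 3 controls. With TMM scaling the values were 518, 534, 392, 318, 368 and 303 CPM, so the Nestin-Cre library moved from below to above the controls. The controls averaged 461 ± 85.4 CPM (SD, n = 3), and Nestin f/f was the highest of them.

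Prrc2c varied most. It had 178 CPM in Nestin f/f, 457 CPM in Nestin-Cre, 139 CPM in Olig2 f/f, 90.5 CPM in Olig2-Cre, 137 CPM in WT and 76.6 CPM in Fto Tg. The Nestin-Cre library was above all others, and the Olig2-Cre and Fto Tg libraries were below all 3 controls, which averaged 151 ± 23.2 CPM (SD, n = 3). The TMM values of 165, 680, 128, 83.0, 126 and 71.5 CPM gave the same order of libraries. The highest library had 5.96 times the level of the lowest for Prrc2c (9.51 times with TMM), against 2.36 times for Prrc2a (1.47) and 1.72 times for Prrc2b (1.76). By rank of CPM, Prrc2c moved between place 222 in Nestin-Cre and place 2952 in Fto Tg, whereas Prrc2b stayed between places 180 and 433.

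**Figure D1:**
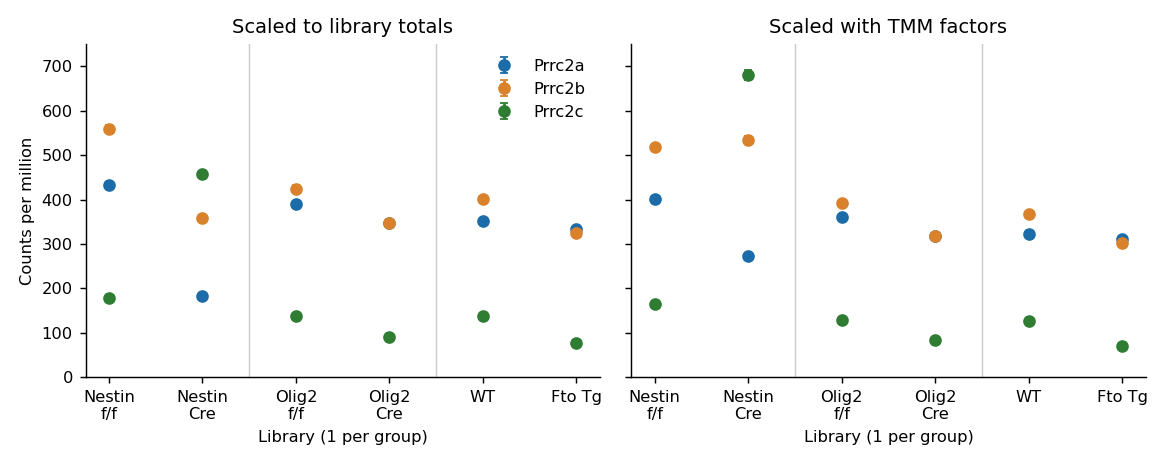
Levels in CPM (vertical axis) of Prrc2a, Prrc2b and Prrc2c in the 6 libraries (horizontal axis, 1 library per group), scaled to library totals on the left and with TMM factors on the right. Bars are Wilson 95% intervals for counting error and are mostly smaller than the points; Prrc2c in the Nestin-Cre library reached 457 CPM and 680 CPM with TMM, and 76.6 to 178 CPM (71.5 to 165 with TMM) elsewhere.

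Levels of different genes were compared per length, as CPM per kilobase of exon (RPKM) over the union of exons. In the controls, Prrc2a had 51.3 ± 5.40 RPKM, Prrc2b 41.0 ± 7.59 RPKM and Prrc2c 9.40 ± 1.44 RPKM (SD, n = 3). Within every library but Nestin-Cre the order was Prrc2a, Prrc2b, Prrc2c. In the Nestin-Cre library it was Prrc2b with 31.8 RPKM, Prrc2c with 28.4 RPKM and Prrc2a with 24.1 RPKM. The position of Prrc2c below the others in the controls did not depend on the length used, but that of Prrc2a over Prrc2b did. The log2 ratio of Prrc2a to Prrc2b per length averaged 0.34 ± 0.13 (SD, n = 3) over the controls with the union of exons, 0.41 with the longest transcript and -0.18 with the coding length, so these neighbors have no fixed order.

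A ratio of 2 members within a library is free of the scaling between libraries, but not of a trend with GC content or length. The log2 ratio of Prrc2c to Prrc2b per exon length was -2.17 in Nestin f/f, -0.16 in Nestin-Cre, -2.13 in Olig2 f/f, -2.45 in Olig2-Cre, -2.06 in WT and -2.60 in Fto Tg. The controls agreed closely, with -2.12 ± 0.052 (SD, n = 3), and every altered library lay outside their range. The ratio of Prrc2c to Prrc2a behaved alike, with -2.36, 0.24, -2.57, -3.01, -2.44 and -3.20 in the same order of libraries. Its controls averaged -2.45 ± 0.10 (SD, n = 3). The ratio of Prrc2a to Prrc2b was 0.20, -0.40, 0.44, 0.56, 0.37 and 0.60. Nestin-Cre was below the controls there, and Olig2-Cre and Fto Tg were above them, against a control SD of 0.13. Of the reads assigned to the family, Prrc2c held 14.6% to 15.4% in the controls, 45.7% in Nestin-Cre, 11.6% in Olig2-Cre and 10.4% in Fto Tg. With 1 library per altered group, these ratios have no replicate check beyond the spread of the controls, which come from different experiments. Genes similar in GC content and length to Prrc2a, Prrc2b and Prrc2c (defined below) had differing median log2 ratios. Those were -1.42, -0.83 and -0.16 for Nestin-Cre against Nestin f/f. For Olig2-Cre they were -0.014, -0.086 and -0.24, and for Fto Tg 0.025, -0.081 and -0.26. The part of GC content and length in the paralog ratios was not tested.

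**Figure D2:**
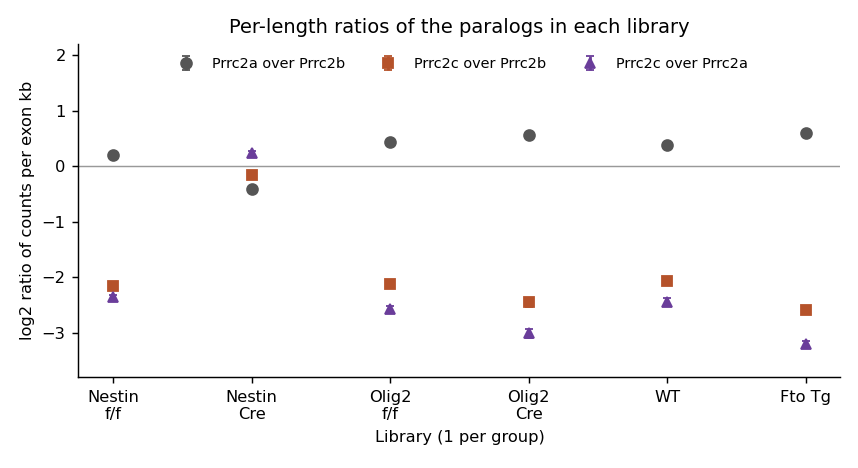
The log2 ratio of counts per kilobase of exon (vertical axis) for the 3 pairs of paralogs in each of the 6 libraries (horizontal axis); bars are 95% intervals for counting error. Prrc2c lies 2.06 to 2.57 log2 units below Prrc2a and Prrc2b in the controls, lower in Olig2-Cre and Fto Tg, and within 0.24 of either in Nestin-Cre.

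The first comparison asked how the family differed between the Nestin-Cre and Nestin f/f libraries. Prrc2a and Prrc2b fell and Prrc2c rose relative to the library total. The log2 ratios were -1.24 for Prrc2a, -0.64 for Prrc2b and 1.36 for Prrc2c, which is a level 2.57 times as high for Prrc2c. All 3 members were called by the read-sampling test, which asks whether 2 libraries differ by more than the sampling of their reads (false discovery rate under 0.001 and a fold of at least 1.2), as were 64.9% of all genes tested, so a call is no distinction in this pair. Of all genes, 11.5% (2097) were called higher, among them Prrc2c, and 53.4% (9699) lower, with a median log2 ratio of -0.72. With TMM scaling 58.6% were called, 5185 higher and 5465 lower, with a median of -0.03. The ratios then became -0.55 for Prrc2a (called), 0.04 for Prrc2b (not called) and 2.04 for Prrc2c (called). With the Olig2 f/f library as control they were -1.08, -0.24 and 1.72, and Prrc2b was not called (65.0% of all genes were). A further setting removed the trend with GC content and exon length across genes of the pair, and 55.5% of genes were then called. On that scale Prrc2a was at 0.23 and not called, Prrc2b was at 0.28 and called higher, and Prrc2c was at 1.48 and called higher. The direction of Prrc2a and of Prrc2b in this pair thus depended on the adjustment, and that of Prrc2c did not.

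In the Olig2-Cre library, Prrc2b and Prrc2c fell and Prrc2a was not called. The log2 ratios to Olig2 f/f were -0.17 for Prrc2a, -0.29 for Prrc2b and -0.62 for Prrc2c. Thus 2 of 3 members were called, against 11.9% of all genes, with 4.95% called higher and 6.91% lower. That split was 878 higher and 1226 lower, and 1124 and 1027 with DESeq2 size factors. The fall of Prrc2c was also called with TMM scaling (-0.63; 11.9% of genes called) and after the GC and length adjustment (-0.37; 6.84% called). Prrc2b lost its call under that adjustment (-0.20). With the Nestin f/f library as control all 3 members were called lower, at -0.33, -0.69 and -0.98 (19.8% called).

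In the Fto Tg library, the same members fell. The log2 ratios to WT were -0.07 for Prrc2a, which was not called, -0.30 for Prrc2b and -0.84 for Prrc2c. Again 2 of 3 members were called, against 15.5% of all genes, with 6.97% called higher and 8.51% lower. That split was 1259 higher and 1537 lower, 1596 and 1264 with DESeq2 size factors, and 915 and 719 after the GC and length adjustment. Prrc2c was called with TMM scaling (-0.81; 15.7% of genes called) and after the adjustment (-0.55; 9.21% called), which removed the call of Prrc2b (-0.19). The Olig2-Cre and Fto pairs share no library.

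The control libraries show how far the members differ without a deletion or transgene. Between Olig2 f/f and Nestin f/f the log2 ratios were -0.16, -0.40 and -0.36 for Prrc2a, Prrc2b and Prrc2c, and 2 of 3 were called, against 13.1% of all genes. Between WT and Nestin f/f they were -0.30, -0.48 and -0.38, and 3 of 3 were called, against 17.3% of all genes. Between WT and Olig2 f/f they were -0.15, -0.08 and -0.02, and 0 of 3 were called, against 7.2% of all genes. All 3 genes were highest in Nestin f/f among the controls. For Prrc2b, the falls against Olig2 f/f and WT were smaller than its control differences that involve Nestin f/f and larger than that between WT and Olig2 f/f. For Prrc2c on library totals, both falls exceeded the widest gap between controls (a log2 ratio of -0.38). The rise in the Nestin-Cre pair was larger still. After the GC and length adjustment, the Olig2-Cre fall (-0.374) was of the size of the control gaps with Nestin f/f (-0.368 and -0.385). Both gaps were called lower on that scale, where 1881 of 18096 and 1861 of 17903 genes were called. The Fto fall (-0.551) and the Nestin-Cre rise (1.48) stayed larger. The spread of the control libraries (a biological coefficient of variation of 0.133) was also used in edgeR's exact test, with library totals. Prrc2a (lower) and Prrc2c (higher) in the Nestin-Cre pair were then called, and no member was called in any other pair. This test was not run with TMM scaling, and the median log2 ratio of the Nestin-Cre pair on library totals was -0.72. The share of all genes called by the exact test was 34.2% for Nestin-Cre, 0.13% for Olig2-Cre and 0.183% for Fto Tg, and 0.597%, 0.867% and 0.244% in the control pairs. The spread was estimated from the same control libraries, so the shares in the control pairs are no independent background.

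**Figure D3:**
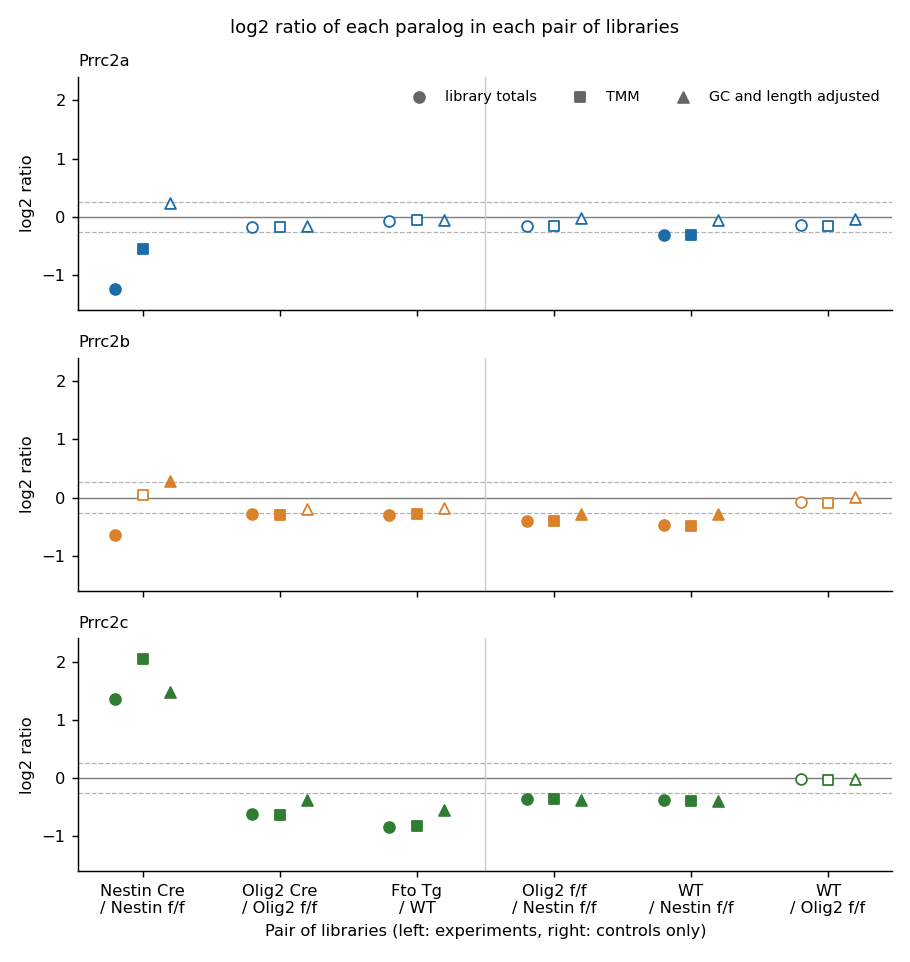
The log2 ratio (first library over second, vertical axis) of each paralog in the 3 experimental pairs (left of the line) and the 3 pairs of controls (right), with library totals (circles), TMM scaling (squares) and adjustment for GC content and length (triangles). Filled symbols were called by the read-sampling test, dashed lines mark a fold of 1.2, bars are 95% counting intervals (smaller than most symbols), and Prrc2c is the only member with the same call under all 3 settings in the Nestin-Cre pair.

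Arms of 2 libraries exist only when the 2 Cre libraries are set together against the 2 f/f libraries. The Cre drivers act in different cells, so the 2 Cre libraries are not replicates of the same condition. The contrast can show only what both drivers share, and its spread includes the difference between them. Its biological coefficient of variation was 0.399, against 0.133 for the controls. By edgeR's quasi-likelihood test, the log2 ratio was -0.35 ± 0.33 (SE) for Prrc2a, with an adjusted p of 0.955. It was -0.08 ± 0.42 (SE) for Prrc2b, with an adjusted p of 0.974. It was 1.39 ± 0.97 (SE) for Prrc2c, with an adjusted p of 0.955, and its 2 Cre libraries lay on opposite sides of their own f/f libraries. No member was called, and 0 of 16921 genes were (0.0%), with 143 genes at an unadjusted p under 0.05. DESeq2's Wald test called 3 genes, none of them a member. Without the Nestin-Cre library, the edgeR estimate for Prrc2c was -0.80 (adjusted p = 0.499). Without the Olig2-Cre library it was 2.23 (adjusted p = 2.236e-05), and Prrc2a was then at -0.46 (adjusted p = 0.033), with 8480 of 17747 genes called. A lone Cre library is there assumed to vary like the f/f libraries.

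Ratios in the Nestin-Cre pair followed base composition. Among 10 groups of genes ordered by GC content, the median log2 ratio went from -0.15 in the most GC-poor group to -1.68 in the most GC-rich. The trend was smaller and opposite in the other experimental pairs, from -0.14 to 0.11 for Olig2-Cre and from -0.15 to 0.14 for Fto Tg. Between controls it was also smaller, and its direction there depends on which library is put first. It went from 0.18 to -0.13 (Olig2 f/f against Nestin f/f), 0.26 to -0.22 (WT against Nestin f/f) and 0.09 to -0.09 (WT against Olig2 f/f). Each member was therefore set beside the genes within 2 percentage points of its GC content and within a factor of 1.5 of its exon length, with at least 100 counts over the pair. In the Nestin-Cre pair, the 204 genes similar to Prrc2a had a median log2 ratio of -1.42, and 93.6% of them were called lower. Prrc2a, at -1.24, was above 59.8% of these genes, so in the library labelled Nestin-Cre the fall of the targeted gene was no larger than that of genes of its kind. The 247 genes similar to Prrc2b had a median of -0.83, and Prrc2b, at -0.64, was above 59.9% of them. The 286 genes similar to Prrc2c had a median of -0.16, and Prrc2c, at 1.36, was above 97.9% of them (95% Wilson interval 95.5% to 99.0%).

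**Figure D4:**
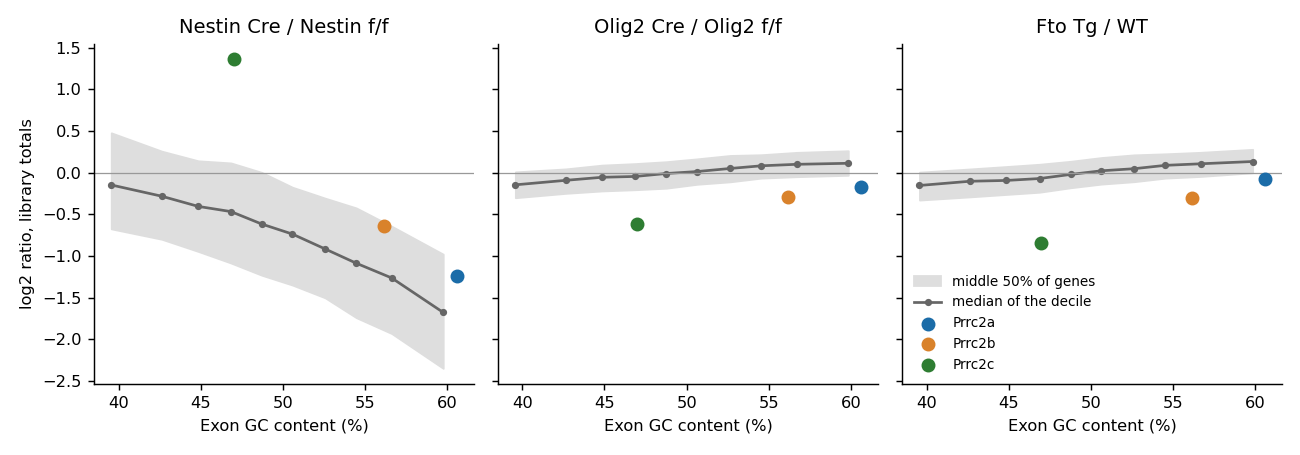
The log2 ratio with library totals (vertical axis) against exon GC content (horizontal axis) in the 3 experimental pairs. The line joins the medians of 10 groups of genes ordered by GC content, the band runs from the lower to the upper quartile of each group, and colored points are the paralogs; Prrc2c lies above the band in the Nestin-Cre pair (1.36) and below it in the Olig2-Cre (-0.62) and Fto (-0.84) pairs.

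In the Olig2-Cre pair, Prrc2c was above 3.16% of its 285 similar genes, whose median was -0.24. Of these, 37.5% were called lower. Prrc2a and Prrc2b were above 17.3% and 16.0% of their similar genes. In the Fto pair, Prrc2c was above 3.51% of 285 similar genes with a median of -0.26, and Prrc2a and Prrc2b were above 26.0% and 13.0% of theirs. Control pairs that used Nestin f/f placed Prrc2c nearly as low, above 6.29% (Olig2 f/f against Nestin f/f) and 6.32% (WT against Nestin f/f) of its similar genes, and Prrc2b above 10.4% and 11.2%. Between WT and Olig2 f/f the members were near the middle, above 45.6%, 50.6% and 47.7%. Against the median of similar genes, Prrc2c was 1.52 higher in the Nestin-Cre pair, 0.38 lower in the Olig2-Cre pair, 0.58 lower in the Fto pair, and 0.38 and 0.42 lower in the control pairs with Nestin f/f (log2). Relative to such genes, the Olig2-Cre value was thus of the size seen between controls.

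**Figure D5:**
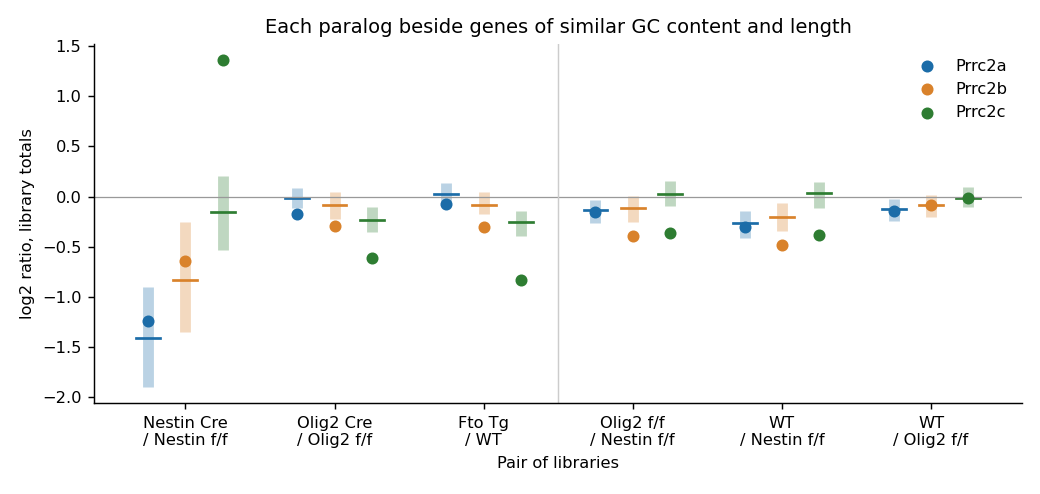
Each paralog (points) beside the genes of similar GC content and exon length in the 3 experimental and 3 control pairs; the vertical axis is the log2 ratio with library totals, bars run from the lower to the upper quartile of the similar genes and short lines mark their medians. Prrc2a and Prrc2b lie inside their bars in the Nestin-Cre pair, and Prrc2c lies 1.52 above its line there and 0.58 below it in the Fto pair.

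Other library features also differed between the libraries. Summed markers of choroid plexus, a tissue inside the ventricles, were 256 CPM in Nestin-Cre and 677 CPM in Fto Tg, against 1607 to 3343 CPM in the other libraries. With TMM scaling they were 381 and 632 CPM, against 1475 to 3064 CPM. Summed markers of oligodendrocyte precursors were 112 CPM in Nestin-Cre and 304 to 436 CPM elsewhere (167 and 281 to 407 CPM with TMM). Those of oligodendrocytes were 6524 CPM in Nestin-Cre and 6715 CPM in Olig2-Cre, against 8441 to 11266 CPM elsewhere. With TMM the Nestin-Cre sum of 9712 CPM was above all 3 controls (7801 to 8935 CPM) and the Olig2-Cre sum of 6155 CPM below them, while the median of the 7 oligodendrocyte markers was 75.2 CPM in Nestin-Cre and 459 to 744 CPM elsewhere on library totals. In Nestin-Cre, Olig2-Cre and Fto Tg the median of the 5 astrocyte markers was 566, 593 and 500 CPM. The controls had 298 to 359 CPM. The summed astrocyte markers were at 5232, 3992 and 3777 CPM in the same order, against 4328 to 4487 CPM in the controls. With TMM scaling these sums were 7788, 3659 and 3524 CPM, against 3973 to 4147 CPM. All markers of these lists were detected in every library. The part of tissue makeup and of mitochondrial reads in the ratios of the Prrc2 genes was not tested. Counting was unstranded, and 6.55% of the Prrc2b exon bases overlap the antisense gene Gm13610, and by the stated union mode, reads on bases of both genes are assigned to neither. No exon of Prrc2a or Prrc2c overlaps another annotated gene.

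Over the 6 libraries, the log2 CPM profiles of the paralogs were not each other's nearest. Likeness was measured by Pearson's r over 6 libraries among 9853 other protein-coding genes with a mean of at least 10 CPM, as a description in which the Nestin-Cre library carries most of the spread. It was 0.53 between Prrc2a and Prrc2b, -0.69 between Prrc2a and Prrc2c, and 0.23 between Prrc2b and Prrc2c. With TMM scaling it was 0.14, -0.40 and 0.85, and without the Nestin-Cre library (5 libraries) it was 0.97, 0.87 and 0.94. By likeness to Prrc2a, Prrc2b stood above 30.6% of the other genes and Prrc2c above 12.2%. By likeness to Prrc2b, Prrc2a stood above 89.3% and Prrc2c above 60.9%. By likeness to Prrc2c, Prrc2a stood above 58.7% and Prrc2b above 78.1%. These shares were 35.8% to 95.6% with TMM scaling and 91.7% to 98.6% without the Nestin-Cre library. The 5 genes most like Prrc2a were Zfp710, Paqr9, Sarm1, Ambra1 and Mllt6 (r from 0.998 to 0.999). Sarm1, an NAD-cleaving enzyme of axon degeneration, had 42.1, 16.4, 36.2, 32.8, 32.6 and 30.2 CPM in Nestin f/f, Nestin-Cre, Olig2 f/f, Olig2-Cre, WT and Fto Tg. Those most like Prrc2b included Rad54l2, L3mbtl1, Mgat5 and Plekha6 (r from 0.990 to 0.998). Rad54l2, a helicase of the SNF2 family, had 48.7, 34.3, 39.7, 34.1, 38.3 and 31.9 CPM in the same order of libraries. The 5 most like Prrc2c were Zfp462, Cdk12, Tnfaip8l3, Scaf4 and Myh10 (r from 0.996 to 0.999). Cdk12, a kinase of elongating RNA polymerase II, had 33.0, 58.4, 29.3, 24.4, 29.7 and 21.6 CPM, and Myh10, a non-muscle myosin, had 273, 497, 223, 175, 224 and 169.7 CPM. These neighbors matched the shape of the Prrc2c profile and not its size, since Prrc2c in the Nestin-Cre library was 2.57 times its Nestin f/f level and the rise from 33.0 to 58.4 CPM in Cdk12 was smaller.

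The other genes of the m6A pathway were read as lists. Of 9 writers, 8 had enough reads, since Rbm15b was listed at 0 in every library. In the Nestin-Cre pair, 3 of the 8 rose and 4 fell (of all genes, 11.5% and 53.4%). Their median log2 ratio was -0.32 against -0.72 for all genes, and -0.05 against -0.01 after the GC and length adjustment. Zc3h13, a scaffold of the writer complex, rose by 2.01, its partner Cbll1 by 1.57 and Mettl14 by 0.45, while Wtap was at -1.08, Rbm15 at -0.95, Mettl3 at -0.80 and Virma at -0.65, all called lower, and Mettl16 at 0.01 was not called. With TMM scaling 4 rose and Wtap alone fell, beside 5185 and 5465 of the 18170 genes tested. Mettl3, the catalytic subunit, was then at -0.12 and not called. Of the erasers, Alkbh5 was called lower at -0.89 (-0.20 and not called with TMM), and Fto at -0.16 was not called (0.53 and called higher with TMM). In the Olig2-Cre and Fto pairs 0 of 8 writers were called (Wtap was, at 0.27, in the Fto pair after the adjustment), and of the erasers only Fto in the Fto pair was (1.16), with Fto also called in the Olig2-Cre pair after the adjustment (0.35).

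Among 13 readers, 4 rose and 5 fell in the Nestin-Cre pair (of all genes, 11.5% and 53.4%). Their median was -0.36 against -0.72 for all genes, and 0.07 against -0.01 after the GC and length adjustment. The nuclear reader Ythdc1 rose by 1.44, Fmr1 by 1.32, Hnrnpa2b1 by 1.04 and Hnrnpc by 0.59. The cytoplasmic readers Ythdf1, Ythdf2 and Ythdf3 were at -1.33, -0.98 and -0.58 and, with Elavl1 (-0.98) and Rbmx (-0.36), were called lower. With TMM scaling the counts were 6 higher and 3 lower, beside 5185 and 5465 of the 18170 genes tested. On that scale Ythdf3 (0.11) was not called and Rbmx (0.32) was called higher. Ythdc2 (-0.02), Igf2bp1 (0.338 CPM in Nestin f/f and 0.0575 CPM in Nestin-Cre), Igf2bp2 (0.24) and Igf2bp3 (-0.50) were not called. In the Olig2-Cre pair only Fmr1 was called, at -0.29 (after the adjustment it was at -0.07 and not called, and Ythdc1 was called higher at 0.31), and in the Fto pair only Ythdf3, at -0.27, of 12 readers tested (not called with TMM, at -0.25, or after the adjustment, at -0.10). Among these readers and the Prrc2 genes, Prrc2c thus was the gene with the largest called ratio in the Olig2-Cre and Fto pairs. Between controls on library totals, 2 and 3 of 13 readers were called higher for Olig2 f/f and WT against Nestin f/f, and 0 lower. Between WT and Olig2 f/f 0 of 13 were called. Of the 8 writers, 0 were called in each control pair.

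Stress granule proteins and initiation factors, the known company of PRRC2 proteins, were read the same way. Of 17 stress granule genes, 5 rose and 7 fell in the Nestin-Cre pair (of all genes, 11.5% and 53.4%). With TMM these were 12 and 2, beside 5185 and 5465 of the 18170 genes tested. Their median was -0.17 against -0.72 for all genes, and 0.05 against -0.01 after the GC and length adjustment. The extremes were Ubap2l (2.06) and G3bp1 (-1.79), which encodes the protein that seeds the granules. In the Olig2-Cre pair 3 of 17 fell and 0 rose (of all genes, 6.91% and 4.95%), with Nufip2 lowest at -0.46 and Fxr1 the least changed of those called at -0.30 (after the adjustment 1 was called higher and 1, Nufip2, lower). In the Fto pair 2 of 17 fell and 0 rose (of all genes, 8.51% and 6.97%). These were Nufip2 at -0.42 and Ubap2l at -0.30, and neither was called after the adjustment (-0.24 and -0.05). Between controls, 2 and 3 of 17 were called higher for Olig2 f/f and WT against Nestin f/f, and 0 lower. Nufip2 was among them, at 0.565 and 0.345, and 0 of 17 were called between WT and Olig2 f/f. Of 25 initiation and scanning factors, 5 rose and 18 fell in the Nestin-Cre pair, beside 11.5% and 53.4% of all genes. With TMM these were 11 and 10, beside 5185 and 5465 of the 18170 genes tested. Their median was -0.66 against -0.72 for all genes, and -0.24 against -0.01 after the GC and length adjustment. Eif3a, the largest subunit of initiation factor eIF3, rose by 1.84, and Eif4h, a helper of the eIF4A helicase, was lowest at -2.52. In the Olig2-Cre pair 2 of 25 rose and 0 fell (4.95% and 6.91% of all genes), Eif3i by 0.31 and Eif3f by 0.29 (0.22 and not called after the adjustment). In the Fto pair 9 of 25 rose and 0 fell (11 and 0 with TMM, 9 and 0 after the adjustment), beside 6.97% higher and 8.51% lower of all genes, with a median of 0.20 against -0.01 for all genes. The called genes ran from Eif3m (0.27) to Eif3k (0.46), while Prrc2c fell in the same pair. Between controls, 2 of 25 rose and 0 fell for WT against Nestin f/f. In each of the other control pairs 0 rose and 1 fell.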

How the data were processed

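RNA-seq was done on mouse hippocampus, 6 libraries in 6 groups taken from titles and genotype labels. The deposited files held counts: per the methods and labels, the authors trimmed reads (Cutadapt, Trimmomatic), aligned them to mm10 (TopHat; the submitters' processing notes name TopHat2 2.0.9 and HTSeq 0.6) and counted unique reads in union mode without strand on Ensembl genes. Union mode drops reads that fall on more than 1 gene, and reads of near-identical copies are lost. Lengths, GC content and sequences came from GENCODE M21 (GRCm38). Symbols were found for 95.2% of identifiers.

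Counts were scaled to library totals (CPM) or with TMM factors (edgeR 4.0.16, R 4.3.3). Pairs were tested with the MARS formulas of DEGseq, programmed in Python 3.11.15 (numpy 2.4.6, pandas 2.3.3, scipy 1.17.1), with 0.5 added to each count, at least 10 counts over the pair, a Benjamini-Hochberg false discovery rate (FDR) under 0.001 and a fold of at least 1.2. Both Cre against both f/f libraries were tested with edgeR's quasi-likelihood test (filterByExpr, FDR 0.05), with DESeq2 1.42.0 as an alternative. The adjustment for GC content and log10 exon length used additive cubic splines, fitted where both libraries of a pair summed to 100 counts or more. The tests were run on simulated data first. Intervals are 95%. Those of levels (Wilson) and ratios cover counting error only and leave out variation between mice. PCR copies are not independent, so these intervals may be too narrow. The Wilson interval of a percentile treats the similar genes as independent draws.

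The members, lists and tests were chosen with earlier results of these data known. Named genes were the members, the 5 protein-coding genes of highest r with each, every m6A gene by its call, and of the stress granule and translation lists the highest and lowest called ratio of each pair. The alternatives were other scale factors, totals without mitochondrial genes, the GC and length adjustment, the other f/f control, no count filter, an exact test, other lengths and windows, and leaving out libraries. Protein sequences were not used here, and 1 gene that the rule names is not reported here.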

Additional observations from a re-analysis of the deposited data

Results flagged for a closer look

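Prrc2c was called higher in the Nestin-Cre pair and lower in the Olig2-Cre pair. These are the 2 comparisons of a library labelled with a Cre and its f/f control. The deletion itself could not be checked in these counts. The log2 ratios differed by 1.98 (1.36 against -0.62). Each side is 1 library, and the difference was not tested. The opposite directions were also present with TMM scaling (2.04 and -0.63) and after the GC and length adjustment (1.48 and -0.37).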

How the results depend on the processing

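The replicate numbers pair no samples, since each group had 1 library and its number is only a name. The experiment (Nestin-Cre or Olig2-Cre) does pair each Cre with its f/f library, and this pairing was fitted as a block.

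In the Nestin-Cre pair, Prrc2a turned to 0.23 after the GC and length adjustment, and Prrc2b turned to 0.044 with TMM, 0.075 with DESeq2 size factors and 0.28 (called higher) after the adjustment, and lost its call with the other f/f control (-0.24) and in the exact test (-0.64). The adjustment removed the calls of Prrc2b in the Olig2-Cre (-0.20) and Fto (-0.19) pairs and of Prrc2a between WT and Nestin f/f (-0.051), and Prrc2b between WT and Olig2 f/f, never called, went to 0.0040. With the other f/f control Prrc2a was called in the Olig2-Cre pair (-0.33). The exact test removed the calls of Prrc2b (-0.29) and Prrc2c (-0.62) in the Olig2-Cre pair, of Prrc2b (-0.30) and Prrc2c (-0.84) in the Fto pair, of Prrc2b (-0.40) and Prrc2c (-0.36) between Olig2 f/f and Nestin f/f, and of Prrc2a (-0.30), Prrc2b (-0.48) and Prrc2c (-0.38) between WT and Nestin f/f. The rise of Prrc2c in the Nestin-Cre pair was called under every alternative run. For the shifts with library composition, the cause was not tested.

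The number of genes called fell in the exact test to 6223 (Nestin-Cre), 23 (Olig2-Cre), 33 (Fto), 110 (Olig2 f/f against Nestin f/f), 158 (WT against Nestin f/f) and 44 (WT against Olig2 f/f). It was 1194 (Olig2-Cre), 1634 (Fto) and 1861 (WT against Nestin f/f) after the adjustment, and 3567 in the Olig2-Cre pair with the other f/f control. TMM changed the split in the Nestin-Cre pair from 2097 higher and 9699 lower to 5185 and 5465.

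For both Cre against both f/f libraries, leaving out 1 library gave -0.46 to -0.25 for Prrc2a, -0.50 to 0.25 for Prrc2b and -0.80 to 2.23 for Prrc2c, and 0 to 8480 genes called, the latter without Olig2-Cre. Prrc2b was at 0.13 without Nestin f/f. The experiment block called 2 genes (Prrc2a at -0.36, Prrc2b at -0.12 and Prrc2c at 0.72 ± 0.70 (SE), none called) and DESeq2's Wald test 3.

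Per length, the mean control log2 ratio of Prrc2a to Prrc2b was -0.18 with the coding length. That of Prrc2c to Prrc2a was -2.12 with the longest transcript and -1.78 with the coding length, and that of Prrc2c to Prrc2b -1.71 and -1.96. With GC matched and length not, the members were above 66.8% (Prrc2a) and 72.3% (Prrc2b) of genes in the Nestin-Cre pair, 10.2% and 6.70% for Olig2-Cre, and 15.8%, 6.13% and 1.79% (Prrc2c) in the Fto pair. With the narrower window they were above 28.0% (Prrc2a) and 1.19% (Prrc2c) in the Olig2-Cre pair and 36.5% (Prrc2a) and 7.58% (Prrc2b) in the Fto pair. Of the 5 named nearest genes, 2 for Prrc2a and 1 for Prrc2c were among the nearest 100 by root-mean-square distance, a measure that also weighs the size of the profile.

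Counting intervals of the members are narrow at this depth and cover counting error only, and variation between mice was not measured within a group.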
